A study of Mus musculus with 4 samples.

Results

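Aortic nuclei with macrophage markers, among them the scavenger receptor Cd163 or factor XIII subunit A (F13a1), were described from single-nucleus RNA libraries. A nucleus was included when it held at least 1 unique molecular identifier (UMI, a tag that counts RNA molecules) for at least 3 of F13a1, Cd163, Mrc1, Gpr141, Clec10a, Adgre1 and Csf1r, with F13a1 or Cd163 among them. It could hold UMIs of at most 1 of 11 genes of other cells, namely St18, Atp6v0d2, Kcnk13, Mamdc2, Vmn2r26, Padi4, Pecam1, Pdgfra, Myh11, Adipoq and Ucp1. Nuclei needed at least 300 genes and at most 10% mitochondrial UMIs, which 107709 of 107978 barcodes met, and 660 of those met the rule. The detection of these genes chose the nuclei, so their levels are given as a description.

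All mice carried a CA1 knock-in on an ApoE-/- background, and there was no library without the knock-in or with intact ApoE. CA1 is carbonic anhydrase 1, and mice without ApoE clear lipoproteins poorly and develop atherosclerosis. Each of 4 groups had 1 library of aortic tissue: mice without treatment (untreated), mice fed high-fat food (high-fat), mice fed high-fat food and given methoxazolamide (MTZ) once atherosclerosis was established (MTZ-after), and mice that received the food and MTZ at the same time (MTZ-simultaneous). MTZ is named in the series title as an inhibitor of CA1. The driver and site of the knock-in, the number of animals behind a library, their age and the dose of MTZ were not given in the sources used here. With 1 library a group no difference could be set against the spread between animals, no test was possible, and all intervals are 95% intervals of counting error only. The 3 comparisons (high-fat against untreated, and each MTZ library against high-fat) share the high-fat library, so their values are not independent.

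Resident macrophages of the arterial adventitia take up debris, haemoglobin and glycoproteins through scavenger and lectin receptors and are kept alive by signals through the CSF1 receptor. In many tissues such cells fall into a population with the hyaluronan receptor Lyve1 and one with MHC class II and the chemokine receptor Ccr2, the latter replaced more readily from blood monocytes. They differ from the foamy macrophages that accumulate lipid in the plaque.

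The 660 nuclei came from all libraries, with 265 from the untreated library, 115 from high-fat, 152 from MTZ-after and 128 from MTZ-simultaneous. This is the order of all values below unless stated. Their UMIs summed to 696622, 161112, 195445 and 247941, with medians of 2262, 1119, 968 and 1504 UMIs a nucleus, against 2026, 969, 828 and 1417 over all nuclei. Untreated was the deepest library and MTZ-after the shallowest, and a rule that asks for 3 detected genes finds more nuclei where depth is greater. Of the included nuclei, 142, 90, 119 and 80 held exactly 3 of the 7 markers, and 97, 27, 46 and 25 held both F13a1 and Cd163. Pairs of libraries shared between 119 and 376 barcode sequences (0.616% to 1.34% of the smaller library), and 0 included barcodes were shared.

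The 11 genes of other cells removed more nuclei than they left. Without that condition 877, 480, 354 and 383 nuclei met the marker part, and 69.8%, 76.0%, 57.1% and 66.6% of these were removed. Pecam1, an endothelial adhesion gene, was present in 75.1% to 84.7% of the removed nuclei, against 55.1% to 63.7% of all nuclei. It was also in 81, 40, 62 and 66 of the included nuclei. In high-fat the foamy-macrophage genes St18 and Atp6v0d2 were in 60.8% and 72.9% of the removed nuclei. Those 2 genes were also detected in 33.8% and 43.3% of all high-fat nuclei, and in 13.9% and 19.1% of all untreated ones. Among the included nuclei, 172, 84, 98 and 98 held 1 of the 11 genes, and the others held 0.

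Nuclei just outside the rule resembled those just inside it at lower marker levels. In untreated the 142 nuclei with exactly 3 markers held F13a1 at 1303 CPM (UMI counts summed over nuclei and scaled to 1000000) and the mannose receptor Mrc1 at 869 CPM. The 313 nuclei with only 2 markers, F13a1 or Cd163 among them, held 904 and 392 CPM. The 200 untreated nuclei with 3 or more markers and 2 of the genes of other cells held F13a1 at 1675 CPM and Mrc1 at 1179 CPM, against 2004 and 1499 CPM in the 172 with 1 such gene.

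F13a1, whose product cross-links fibrin, was the most abundant marker. Its level was 2255 (2145 to 2370), 2011, 1688 and 1545 CPM, highest in untreated and lowest in MTZ-simultaneous. Nuclei of T or NK cells, defined by at least 3 of 10 T-cell genes, should lack it and held 87.3, 47.6, 82.2 and 159 CPM. Such T/NK-type nuclei are used throughout as a guide to RNA that reaches a nucleus from outside. For genes that T or NK cells make themselves, their level also holds their own RNA, and the parts were not separated. At least 1 F13a1 UMI was found in 96.2%, 96.5%, 95.4% and 96.1% of the included nuclei. With every nucleus thinned to 500 UMIs (0 included nuclei were shallower) the shares were 59.2%, 65.2%, 59.9% and 48.4%, against 4.89%, 4.58%, 2.0% and 2.34% of T/NK-type nuclei.

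Mrc1 followed at 1629, 1328, 1356 and 871 CPM, with 94.3, 90.9, 121 and 94.6 CPM in T/NK-type nuclei. The haemoglobin scavenger receptor Cd163 stood at 313, 261, 379 and 186 CPM, with a UMI in 107, 31, 53 and 30 nuclei. Adgre1, the F4/80 antigen, stood at 355, 478, 507 and 367 CPM and the lectin Clec10a at 326, 254, 225 and 355 CPM. Csf1r, the CSF1 receptor, was at 201, 186, 205 and 294 CPM, and the orphan receptor Gpr141 was the least abundant at 135, 93.1, 154 and 109 CPM. None of the 7 differed by 2-fold or more between the libraries compared, in values that the rule itself fixed in part. The widest ratios were 0.656 (0.540 to 0.796) for Mrc1 in MTZ-simultaneous against high-fat and 1.65 (0.860 to 3.30) for Gpr141 in MTZ-after against high-fat.

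**Figure D1:**
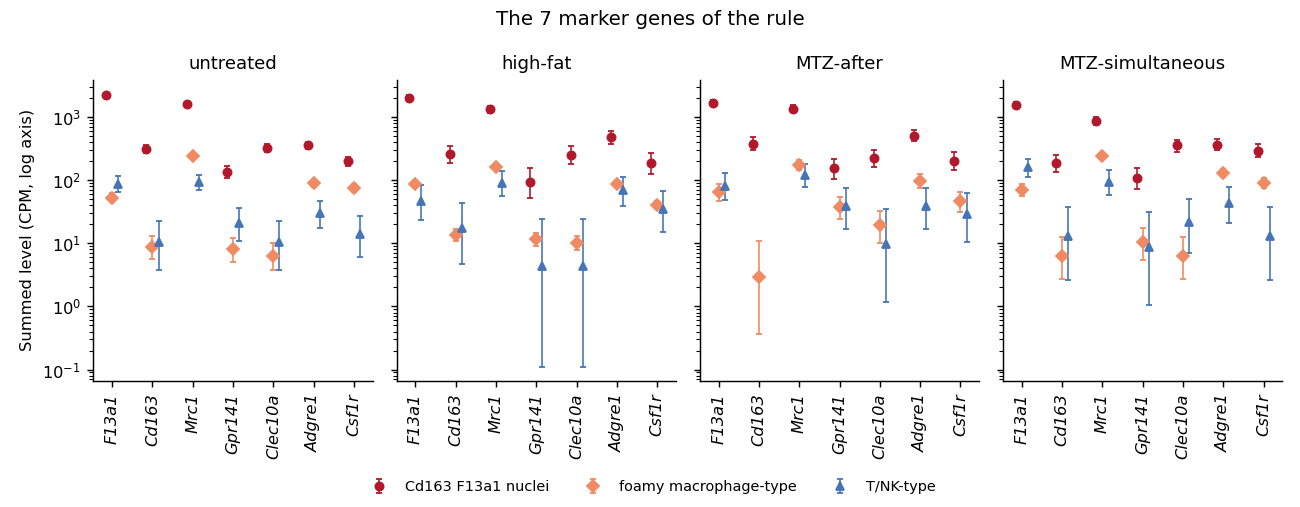
Level of the 7 marker genes in each library (CPM, log axis) in the Cd163 F13a1 nuclei, foamy macrophage-type nuclei and T/NK-type nuclei, with bars for the 95% counting interval; a type with 0 counts has no point. F13a1 lies between 1545 and 2255 CPM in the Cd163 F13a1 nuclei of the 4 libraries and at 47.6 to 159 CPM in T/NK-type nuclei.

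The 250 bases before the start sites of the 2 most abundant markers are shown because these genes define the nuclei. Capitals mark matches to AGGAAG or its reverse complement CTTCCT, the core that ETS factors such as PU.1 (Spi1) bind. F13a1 (chromosome 13, 36867178 to 37050244, minus strand, mm10) has RefSeq start sites at 2 places, and the window of the first is chr13:37050245-37050494, minus strand. Mrc1 (chromosome 2, 14229392 to 14332057, plus strand) has the window chr2:14229164-14229413, plus strand. Both were read 5′ to 3′ from RefSeq on GRCm38.p6, the assembly of mm10.
F13a1: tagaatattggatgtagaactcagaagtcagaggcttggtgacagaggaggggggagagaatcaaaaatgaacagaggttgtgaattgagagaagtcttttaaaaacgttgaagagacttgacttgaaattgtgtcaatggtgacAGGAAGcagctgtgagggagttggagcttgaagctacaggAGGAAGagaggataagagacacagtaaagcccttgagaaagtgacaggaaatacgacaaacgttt
Mrc1: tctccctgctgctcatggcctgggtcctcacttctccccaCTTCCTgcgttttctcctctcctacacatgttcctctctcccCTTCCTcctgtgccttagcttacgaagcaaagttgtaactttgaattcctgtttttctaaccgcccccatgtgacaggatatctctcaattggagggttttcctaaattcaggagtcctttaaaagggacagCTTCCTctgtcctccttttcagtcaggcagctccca

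The F13a1 window holds 2 matches and the Mrc1 window 3. Over 32851 windows of the same length, 29.5% hold at least 1 match on either strand, so the motif is common, and a match is a description of the letters only. Spi1 itself, the PU.1 gene, was at 141, 105, 97.2 and 105 CPM in the included nuclei and at 22.7, 47.6, 38.7 and 17.2 CPM in T/NK-type nuclei.

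Genes outside the rule were then compared with the other types of the same library. In all 4 libraries 34 genes stood above foamy macrophage-type, T/NK-type and structural nuclei (endothelial, fibroblast, smooth muscle or adipose genes) with the lower bound of each of the 3 ratios over 1; they were chosen after their values were seen. Rbpj, the nuclear effector of Notch signalling, came first, with 4704, 2470, 2973 and 2339 CPM in the included nuclei. Foamy macrophage-type nuclei held Rbpj at 381, 429, 353 and 463 CPM and T/NK-type nuclei at 533, 394, 416 and 318 CPM. The level in the Cd163 F13a1 nuclei was thus several times that of either type in every library, and highest in untreated. Monocyte/dendritic-type nuclei, not used in choosing the 34 genes, held Rbpj at 1283, 440, 351 and 186 CPM.

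The adaptor Dab2, which sorts receptors into clathrin-coated pits, stood at 965, 763, 701 and 597 CPM, against 238 to 263 CPM in foamy macrophage-type nuclei. The transporter gene Abca9 was at 389, 186, 194 and 234 CPM, against 22.3 to 37.5 CPM there. Psd3 was at 2189, 1459, 1586 and 1230 CPM and Pid1, an adaptor of lipoprotein and insulin signalling, at 2966, 2588, 1770 and 1896 CPM. Monocyte/dendritic-type nuclei held Pid1 at 1885, 796, 786 and 820 CPM. The transcription factor Maf, known for its role in resident macrophages, was at 454, 422, 328 and 375 CPM, against 84.8 to 109 CPM in foamy macrophage-type nuclei. Cathepsin C (Ctsc), a lysosomal protease, was at 751, 521, 404 and 496 CPM. Lifr, the receptor for leukaemia inhibitory factor, was at 334, 298, 292 and 282 CPM with little difference between libraries.

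**Figure D2:**
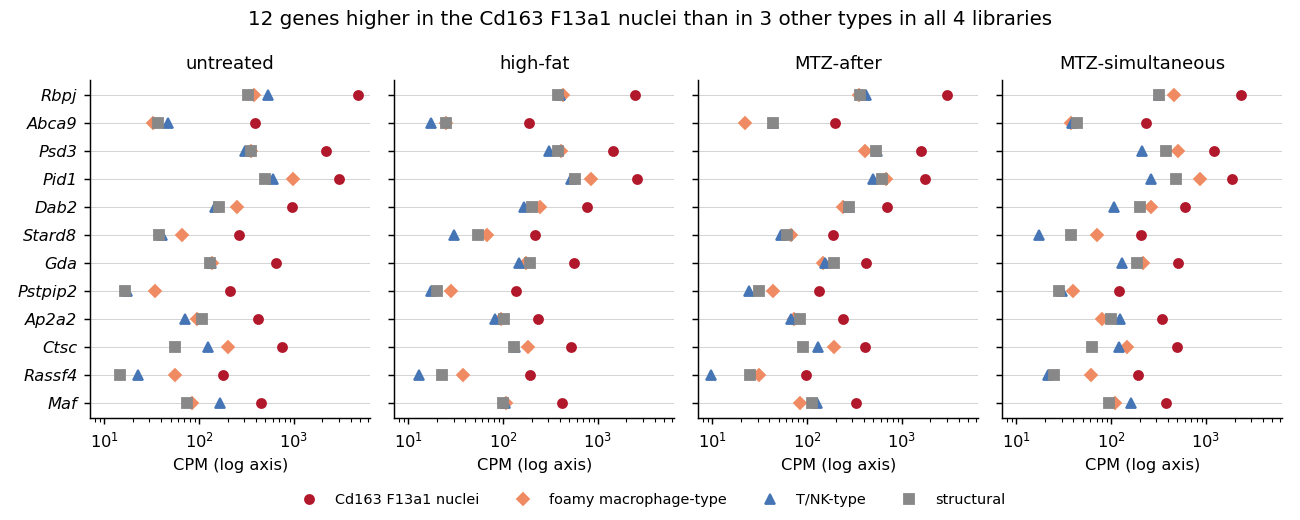
Level (CPM, log axis) of the first 12 of the 34 genes in the Cd163 F13a1 nuclei and in 3 other types of nuclei, by library. Rbpj lies at 2339 CPM or more in the Cd163 F13a1 nuclei and at 533 CPM or less in the 3 others in every library.

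T and NK genes were below their level in T/NK-type nuclei, a type that T-cell genes define. Monocyte and dendritic genes lay between those of other types. Endothelial genes, Pecam1 of the rule among them, summed to less than in T/NK-type nuclei. T and NK genes summed to 108, 161, 92.1 and 117 CPM over 10 genes, against 6123, 3605, 3766 and 4996 CPM in T/NK-type nuclei. That difference follows from how T/NK-type nuclei were chosen. Foamy macrophage-type nuclei held 19.65, 96.2, 87.8 and 39.1 CPM and structural nuclei 38.2, 123, 133 and 50.9 CPM. Monocyte and dendritic genes summed to 360, 261, 281 and 403 CPM over 12 genes, above the 192, 147, 189 and 155 CPM of T/NK-type nuclei and below the 2354, 1569, 1757 and 1630 CPM of monocyte/dendritic-type nuclei. Endothelial genes summed to 1434, 1992, 2978 and 2343 CPM over 10 genes, against 1830, 2960, 3065 and 2717 CPM in T/NK-type nuclei. The rule itself limits Pecam1, which gave 340, 521, 594 and 577 CPM of these sums, against 566, 848, 677 and 826 CPM in T/NK-type nuclei. A label of residence rests on less: a UMI of Lyve1, Folr2 or Timd4, genes of the long-lived population, was present in 51, 15, 13 and 13 nuclei (19.2%, 13.04%, 8.55% and 10.2%). By a separate list of 10 general macrophage genes, of which 3 had to be detected, only 93, 29, 14 and 33 of the included nuclei would be called macrophage-type.

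The high-fat library held the smallest share of these nuclei. They were 1.19% of untreated nuclei (1.05 to 1.34), 0.303% of high-fat (0.2498 to 0.363), 0.541% of MTZ-after (0.459 to 0.634) and 0.665% of MTZ-simultaneous (0.555 to 0.790). The intervals of untreated and high-fat do not overlap each other or those of the MTZ libraries, while those of the MTZ libraries overlap. The ratio was 0.255 (0.205 to 0.317) for high-fat against untreated, 1.79 (1.41 to 2.28) for MTZ-after against high-fat and 2.20 (1.71 to 2.82) for MTZ-simultaneous against high-fat.

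Depth was checked by thinning every nucleus to 500 UMIs before the rule was applied, with 0 nuclei too shallow. The shares became 0.461%, 0.137%, 0.231% and 0.260%, and the ratios 0.297, 1.69 and 1.90 in the order of the comparisons. Without the limit on genes of other cells, the ratio of MTZ-after to high-fat was 0.998 (0.871 to 1.14), so the shares of MTZ-after and high-fat then differed by less than counting error. Without the limit but after thinning, the ratio was 1.499 (1.07 to 2.10). The part that the foamy-macrophage genes St18 and Atp6v0d2 have in this, through RNA that reached other nuclei in high-fat, was not tested.

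Other types shifted in the same libraries. T/NK-type nuclei were 1.19%, 0.345%, 0.534% and 0.665% of nuclei, with ratios of 0.289, 1.55 and 1.93, so that there were 0.996, 0.878, 1.01 and 1.00 Cd163 F13a1 nuclei for each T/NK-type nucleus. Structural nuclei had ratios of 0.369, 1.67 and 2.60 and monocyte/dendritic-type nuclei 0.410, 2.07 and 2.27. Foamy macrophage-type nuclei, at 2.31%, 7.53%, 1.21% and 1.89%, moved the opposite way, with ratios of 3.26, 0.161 and 0.252. For each of them there were 0.514, 0.0402, 0.446 and 0.351 Cd163 F13a1 nuclei. A share gives no number of nuclei in the tissue, so fewer of these nuclei and more of all others cannot be told apart.

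**Figure D3:**
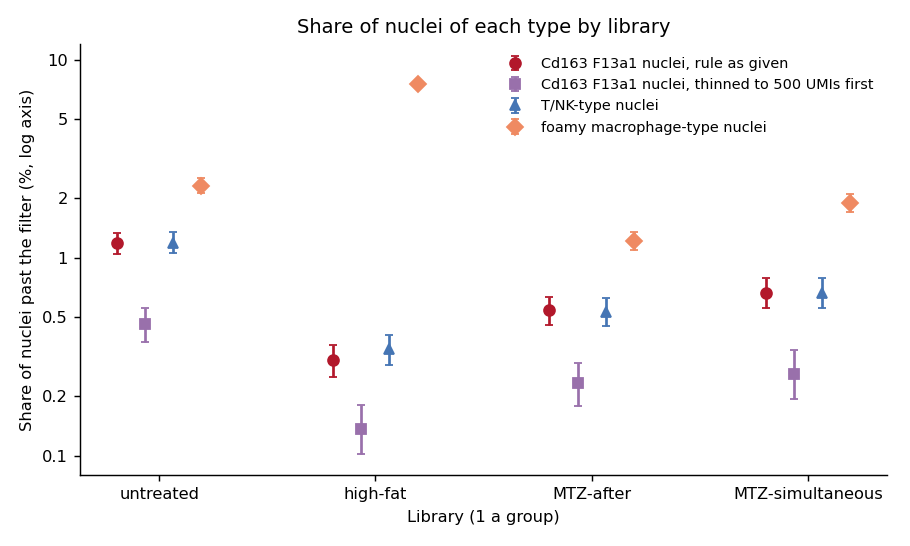
Share of nuclei past the filter (%, log axis) for each type in the 4 libraries, with 95% counting intervals; squares show the Cd163 F13a1 nuclei with every nucleus first thinned to 500 UMIs. The Cd163 F13a1 and T/NK-type nuclei are lowest in high-fat (0.303% and 0.345%), where foamy macrophage-type nuclei are highest (7.53%).

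The first comparison asked how the diet differs from no treatment in these nuclei. In high-fat 7 immediate early genes and 4 genes of the resident and perivascular list were called lower, and 7 lipid-associated genes were called higher. The lipid-associated list was above 0 in T/NK-type and structural nuclei too, and below 0 in foamy macrophage-type ones. A gene was called at a CPM difference of 2-fold or more, provided that at least 30 counts lay in whichever library was higher. Of the genes with that many counts in high-fat, 61 of 1338 were called higher (4.56%), and of those in untreated 385 of 4816 were called lower (7.99%). With TMM factors, which scale by a trimmed mean of genes instead of the total, 32 were higher and 495 lower. Over all 9439 genes with 10 counts the median log2 ratio was -0.003.

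Immediate early genes, switched on within minutes of a stimulus or of tissue handling, were below 0 in 17 of 17 with counts, with a median log2 ratio of -0.65. Fos, a subunit of AP-1, was at 283, 93.1, 159 and 246 CPM, lowest in high-fat, with a ratio to untreated of 0.329 (0.181 to 0.556). Junb was at 261, 99.3, 184 and 190 CPM (ratio 0.380) and the mRNA-decay factor Zfp36 at 253, 86.9, 107 and 133 CPM (ratio 0.344, 0.184 to 0.593). The phosphatase Dusp1 (251 against 105 CPM) and the growth inhibitor Btg2 (215 against 62.1 CPM) were also called lower, as were Nr4a1 with 73 against 3 counts (ratio 0.178, 0.0358 to 0.540) and Fosb with 38 against 1. These were 7 called lower and 0 higher of 15 with enough counts. The list median lay between -1.64, with at least 4 markers, and -0.52, without the limit on genes of other cells, in all settings run. The same genes had medians of -0.07 in T/NK-type, -0.14 in structural and 0.00 in monocyte/dendritic-type nuclei. Fos was at 136 and 134 CPM in T/NK-type nuclei of the same libraries and at 161 and 167 CPM in structural ones.

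Of the 27 genes of the resident and perivascular list 24 had counts enough for a ratio, at a median log2 ratio of -0.40, and of 15 with enough counts 4 were called lower, beside 7.99% of all genes. The galactose-type lectin Mgl2 was at 119, 24.8, 20.5 and 64.5 CPM, highest in untreated, with a ratio of 0.208 (0.0555 to 0.554) for high-fat. The organic anion carrier Slco2b1 was at 135 and 43.4 CPM (0.322, 0.126 to 0.690). Lyve1 (30 against 3 counts) and the lectin Cd209g (30 against 2 counts) were called on few counts, and their intervals include 1 (0.0844 to 1.39 and 0.0334 to 1.14). Larger members were not called: Dab2 had 965 and 763 CPM and the scavenger receptor Stab1 312 and 273 CPM. Wwp1 stood at 866 and 633 CPM (ratio 0.731, 0.587 to 0.904) and Tcf4 at 1015 and 1043 CPM. Timd4, a phosphatidylserine receptor with 39 and 14 counts, was at 56.0 and 86.9 CPM, and 8 of the 24 genes lay above 0. In T/NK-type nuclei the list had a median of 0.28.

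Single genes of other lists were called lower. The inflammatory list had a median of -0.04, with 5 genes above and 7 below 0, and 1 call of 6, Il1b. The monocyte and dendritic list had a median of -0.51 (-0.21 with a gene at 0 set to the floor of 3 counts) and 1 call of 3, Adgre4, and the chemokines 1 call of 2, Ccl6. Il1b, the interleukin 1 beta gene, was at 97.6, 12.4, 5.12 and 48.4 CPM in 22, 2, 1 and 7 nuclei, with a ratio of 0.127 (0.0151 to 0.477) on 2 high-fat counts. Adgre4, an adhesion receptor of patrolling monocytes, was at 108, 18.6, 97.2 and 60.5 CPM, with a ratio of 0.173 (0.0349 to 0.525) on 3 high-fat counts. The G-CSF receptor Csf3r was at 108 and 31.0 CPM and the chemokine Ccl6 at 218 and 99.3 CPM. Among complement genes C5ar1 (58.9 against 24.8 CPM) and C3 (77.5 against 31.0 CPM) were called lower of 11 with enough counts; the list median was -0.39 here and 0.94 in T/NK-type nuclei. In the receptor list Csf3r was the only call of 17, and Csf1r, Csf2ra, Il10ra, Tgfbr1 and Ccr2 were not called.

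By the rule for named genes, which also asked for a level at least 2-fold above T/NK-type and structural nuclei, 60 genes qualified as lower and 5 as higher. Of all genes, 4816 had 30 counts in untreated and 1338 in high-fat, so more could qualify as lower. With a minimum of 200 CPM as well, the genes called lower before this rule numbered 54 instead of 385. P3h2, a collagen prolyl hydroxylase, came first at 324, 55.9, 123 and 161 CPM, with a ratio of 0.172 (0.0777 to 0.333); it was found in 89 untreated and 8 high-fat nuclei. Its ratio was 0.359 without the limit on genes of other cells. Mctp1, a calcium-binding membrane protein, was the most abundant of the 10 named, at 1611, 770, 1187 and 803 CPM (ratio 0.478, 0.394 to 0.576). The growth factor Nrg2 was at 118 and 24.8 CPM. The exchange factor Arhgef37 had 89 against 2 counts (0.0972, 0.0116 to 0.361). With 0 high-fat counts set to a floor of 3, Kcnip4 had a ratio of 0.324 (0 to 0.418) and Gm40304 of 0.333 (0 to 0.429). Zfp36, Il1b, Adgre4 and Mgl2 complete the 10.

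Of the 5 higher genes, 2 rested on a single nucleus. Chl1, a neural adhesion gene, had 54 of its 56 high-fat counts in 1 nucleus of 10809 UMIs, and Irs1 had 22 of 38 in the same nucleus. Lair1, an inhibitory collagen receptor, was at 70.3, 192, 169 and 145 CPM, lowest in untreated, with a ratio of 2.73 (1.69 to 4.38) and no more than 4 counts in any nucleus. The phosphatase gene Ubash3b was at 184, 403, 230 and 157 CPM, highest in high-fat (ratio 2.20, 1.603 to 2.98). Gm4951 was at 94.7, 217, 128 and 92.8 CPM (ratio 2.29). Foamy macrophage-type nuclei of high-fat held Lair1 at 180 CPM and Ubash3b at 324 CPM.

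Lipid-associated genes, which macrophages raise as they take up lipid, had a median log2 ratio of 0.95, above 0 in 18 of 21, with 7 called higher and 1 lower. Spp1 (osteopontin) was at 402, 1552, 583 and 601 CPM (ratio 3.86, 3.24 to 4.59), Gpnmb at 108, 596, 138 and 198 CPM (ratio 5.54) and the elastase Mmp12 at 38.8, 261, 118 and 84.7 CPM (ratio 6.73). The cathepsins Ctsl and Ctsd, galectin 3 (Lgals3) and the sterol exporter Abcg1 were the other calls, and the fatty-acid carrier Fabp4 was the lower one. T/NK-type nuclei held Spp1 at 410, 1921, 599.5 and 1234 CPM and Gpnmb at 145, 904, 222 and 258 CPM. The list had medians of 1.27 in T/NK-type and 1.40 in structural nuclei, as large as in the Cd163 F13a1 nuclei. In foamy macrophage-type nuclei its median was -0.77, with 1 gene above and 20 below 0. The part of the list's level in the Cd163 F13a1 nuclei that comes from free RNA was not tested.

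Brown-fat genes were below 0 in 8 of 8, with 6 called lower and a median of -2.80 (-1.81 with 2 genes at 0 set to the floor). Ucp1, with 52 against 1 counts, was among those called lower, and the rule that chose the nuclei limits it. Ppargc1a, the coactivator of mitochondrial genes, was at 264, 24.8, 113 and 92.8 CPM here and at 295, 43.3, 72.5 and 73.1 CPM in T/NK-type nuclei. The median in structural nuclei was -2.46. The lower calls for the fatty-acid transporter Cd36 (749 against 335 CPM, and 681 against 325 CPM in T/NK-type nuclei) and the higher one for fibronectin Fn1 (525 against 1061 CPM, and 360 against 965 CPM) also had their like in T/NK-type nuclei.

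The interferon response was above 0 in 12 of 16 genes, at a median of 0.53. Rnf213, a large ubiquitin ligase, was at 192 and 304 CPM and the DNA sensor Ifi204 at 121 and 174 CPM. T/NK-type nuclei had a list median of 0.18 and structural nuclei 0.68. With at least 4 markers asked for, the list median was -0.03.

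Regulators of macrophage identity were not called, with 0 of 19 and a median of -0.10. Zeb2, a repressor that maintains macrophage identity, was at 4393, 4562, 2840 and 3134 CPM. Mef2c was at 593, 490, 450 and 476 CPM and Runx1 at 1021, 627, 507 and 553 CPM, both highest in untreated. Iron and haem genes had 1 call, transferrin (Trf, 91.9 against 24.8 CPM), and a median of -0.21. MHC class II genes had a median of -0.54 and 1 lower call of 5, H2-Eb1 (175 against 68.3 CPM, 0.390, 0.190 to 0.722); with at least 4 markers asked for, the list median was 0.75. Growth factors had 0 calls of 6, with insulin-like growth factor Igf1 at 220, 279, 194 and 202 CPM.

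**Figure D4:**
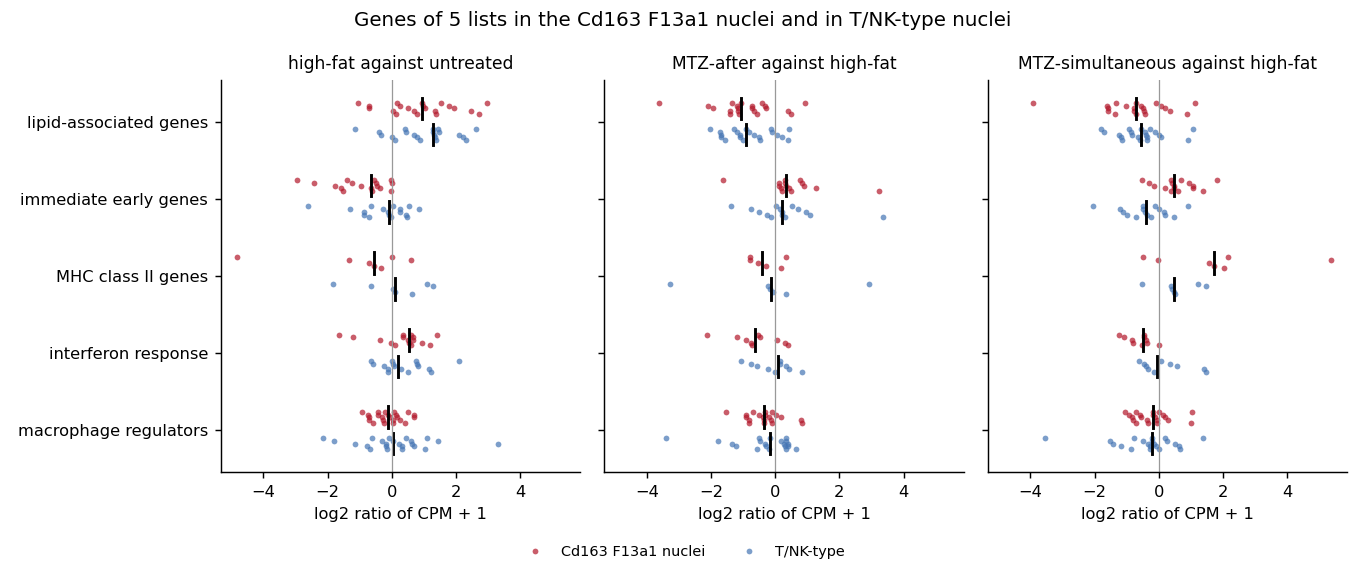
Log2 ratio of CPM + 1 for each gene of 5 lists in the 3 comparisons (1 point a gene with at least 10 counts over both libraries; black bar, median), in the Cd163 F13a1 nuclei and in T/NK-type nuclei. The lipid-associated medians lie on the same side in both types, at 0.95 and 1.27 in high-fat against untreated, while the MHC class II medians in MTZ-simultaneous against high-fat lie at 1.71 and 0.46.

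The next comparison set MTZ given after atherosclerosis was established against high-fat food alone. The lipid-associated genes were lower, again in T/NK-type and structural nuclei too but not in foamy macrophage-type ones. Few genes were higher beyond what other nuclei held. Of 1605 genes with 30 counts in MTZ-after 91 were called higher (5.67%), and of 1338 with that many in high-fat 75 were called lower (5.61%). The median log2 ratio over all genes was -0.03.

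Only the endothelin receptor gene Ednrb qualified as higher by the rule for named genes, at 151, 62.1, 200 and 101 CPM, with 39 counts in 32 nuclei of MTZ-after and a ratio of 3.21 (1.58 to 7.22). Of 15 that qualified as lower, Chl1 and Irs1 came first through the single high-fat nucleus. Unc93b1, which carries nucleic-acid-sensing Toll-like receptors to endosomes, was at 419, 422, 164 and 315 CPM, lowest in MTZ-after, with a ratio of 0.388 (0.246 to 0.599). Il6ra, the interleukin 6 receptor, was at 342, 310, 133 and 214 CPM (0.429, 0.256 to 0.702). Without the limit on genes of other cells its ratio was 1.03. The xanthine dehydrogenase Xdh (385 against 159 CPM), the GTPase Rab8b (596 against 292 CPM), the inhibitory receptor Pirb (217 against 87.0 CPM) and Cyth4 (255 against 92.1 CPM) were further lower genes, with Gm15987 and Gm4258.

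Lipid-associated genes had a median of -1.08, with 8 called lower and 0 higher of 13. Their medians were -0.91 in T/NK-type, -1.11 in structural and 0.15 in foamy macrophage-type nuclei. Spp1 had a ratio of 0.376 (0.299 to 0.471) and Gpnmb 0.232 (0.145 to 0.359), and T/NK-type nuclei of MTZ-after held them at 599.5 and 222 CPM. Mertk, a receptor for the uptake of dying cells, was at 323, 540, 261 and 262 CPM, highest in high-fat, and was called lower in both MTZ libraries (0.483 and 0.486); T/NK-type nuclei held 105, 441, 184 and 120 CPM. The ferritin light chain Ftl1 was called lower (310 against 138 CPM, with 338 and 222 CPM in T/NK-type nuclei).

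Immediate early genes were above 0 in 14 of 15, with a median of 0.34 and 0 calls, against 0.21 in T/NK-type nuclei. MHC class II genes had a median of -0.40 with 0 calls of 1, and regulators of macrophage identity -0.34 with 0 calls of 11. For the interferon response the median was -0.63, with the ADP-ribosyltransferase Parp14 called lower (261 against 113 CPM). Adrenal cortex genes, foreign to macrophages, summed to 379 CPM in MTZ-after, against 556 CPM in T/NK-type and 353 CPM in structural nuclei of that library and at most 68.6 CPM in the included nuclei of the others.

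The last comparison set MTZ given together with the diet against high-fat food alone. Here MHC class II genes, Lyz2 and Retnla were higher, by more than in T/NK-type nuclei, and the lipid-associated genes were lower. Of 2180 genes with 30 counts in MTZ-simultaneous 141 were called higher (6.47%), and of 1338 in high-fat 57 were called lower (4.26%). The median log2 ratio over all genes was 0.02, and 18 genes qualified as higher and 9 as lower by the rule for named genes.

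MHC class II molecules present peptides of engulfed proteins to CD4 T cells. The chain genes H2-Aa, H2-Ab1 and H2-Eb1 and the invariant chain Cd74 were the 4 members with enough counts, and all 4 were called higher, with a list median of 1.71. H2-Aa was at 126, 99.3, 113 and 327 CPM (ratio 3.29, 1.91 to 6.03), H2-Ab1 at 81.8, 55.9, 46.1 and 234 CPM (4.19, 2.06 to 9.61) and H2-Eb1 at 175, 68.3, 87.0 and 307 CPM (4.49, 2.37 to 9.37). Cd74 was at 208, 211, 123 and 625 CPM (2.96, 2.03 to 4.43). For each gene MTZ-simultaneous was the highest library, and its interval did not overlap that of any other. T/NK-type nuclei held H2-Aa at 22.7, 56.3, 53.2 and 38.7 CPM and Cd74 at 47.1, 73.6, 62.9 and 98.9 CPM; the list medians were 0.46 there and -0.06 in structural nuclei. In monocyte/dendritic-type nuclei the median was 0.91, with H2-Aa at 125, 60.6, 70.3 and 237 CPM. Ciita, the coactivator that turns these genes on, was not called, at 204, 124, 71.6 and 88.7 CPM. The list median was 0.51 with at least 4 markers asked for, 0.79 with both F13a1 and Cd163 detected and 1.08 without the limit on genes of other cells, and H2-Ab1 had a ratio of 1.12 where none of those genes was allowed.

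H2-Aa and H2-Eb1 lie close together on chromosome 17 of mm10 (34282744 to 34287823, minus strand, and 34305867 to 34316674, plus strand). The 250 bases before their RefSeq start sites on GRCm38.p6 are shown because these genes were called together. Capitals mark CTGATTGG, the Y box that NF-Y binds, and GCAACT, part of the X box that RFX binds, both searched on either strand with CCAATCAG and AGTTGC as the reverse complements. The H2-Aa window is chr17:34287824-34288073, minus strand, and the H2-Eb1 window chr17:34305617-34305866, plus strand.
H2-Aa: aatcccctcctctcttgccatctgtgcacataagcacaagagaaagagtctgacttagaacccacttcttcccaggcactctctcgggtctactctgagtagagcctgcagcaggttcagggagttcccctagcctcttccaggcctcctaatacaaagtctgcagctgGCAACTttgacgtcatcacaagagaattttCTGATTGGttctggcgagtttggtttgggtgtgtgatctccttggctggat
H2-Eb1: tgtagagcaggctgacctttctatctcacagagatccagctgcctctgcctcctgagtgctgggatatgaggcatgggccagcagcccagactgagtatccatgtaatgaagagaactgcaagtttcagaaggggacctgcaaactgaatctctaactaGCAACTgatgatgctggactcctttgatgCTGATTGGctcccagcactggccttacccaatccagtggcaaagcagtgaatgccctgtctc

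Each window holds 1 match of each motif. CTGATTGG is found in 3.83% and GCAACT in 9.01% of 32851 windows of this length, and both are found in 0.341% (112 windows). These motifs were searched because they are known in such genes, and the matches say nothing of the factors in these nuclei.

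MHC class II transcripts were detected in part of the nuclei of each library. The split below uses these same genes, and a nucleus can miss them by sampling, so it cannot show a separate subset. Members with UMIs of at least 2 of H2-Aa, H2-Ab1, H2-Eb1 and Cd74 numbered 61, 12, 10 and 38, or 23.0%, 10.4%, 6.58% and 29.7% of the nuclei in each library; this split was chosen after the values were seen. Thinned to 500 UMIs, 16.98%, 15.7%, 12.5% and 30.5% of the included nuclei held a UMI of any of the 4 genes, against 5.64%, 9.16%, 10.7% and 8.59% of T/NK-type nuclei. The intervals of the first 3 libraries reach 22.0%, 23.6% and 18.8%, and that of MTZ-simultaneous starts at 22.6%. In MTZ-after the share was near that of T/NK-type nuclei. In high-fat it was higher, with overlapping intervals (9.55% to 23.6% against 4.82% to 15.45%).

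The rule asked for its markers in both sets of nuclei. F13a1 was at 2121 CPM in the 61 untreated nuclei and at 2316 CPM in the other 204, and at 1733 and 1443 CPM in the 38 and 90 of MTZ-simultaneous. Cd163 was at 231 against 350 CPM in untreated and at 115 against 224 CPM in MTZ-simultaneous. Ccr2, the receptor by which monocytes enter tissue, was at 576 CPM against 98.0 in untreated, at 1140 against 72.8 in high-fat (27 and 10 counts), at 137 against 171 in MTZ-after (2 and 31 counts) and at 769 against 243 in MTZ-simultaneous. It was thus higher in nuclei with MHC class II transcripts in 3 of 4 libraries. Ciita, part of the same programme, was at 415 against 108 CPM in untreated and at 138 against 62.2 CPM in MTZ-simultaneous. Over all included nuclei Ccr2 was at 247, 230, 169 and 428 CPM and was not called. A nucleus with more UMIs passes the split more easily; the medians were 3146 and 1862 UMIs in untreated, and 1575 and 1493 in MTZ-simultaneous.

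Retnla, a secreted resistin-like protein of alternatively activated macrophages, gave the highest ratio. It had 17, 0, 4 and 250 counts in 13, 0, 3 and 23 nuclei, or 24.4, 0, 20.5 and 1008 CPM. Set against a floor of 3 high-fat counts, MTZ-simultaneous was 54.2-fold higher, and the counting interval starts at 43.7-fold. A single nucleus held 81 of the 250 counts, and without it the value against the floor was 36.6-fold. Under the other settings this value ran from 12.2-fold, with both F13a1 and Cd163 detected, to 64.6-fold, without the limit on genes of other cells. Other types of MTZ-simultaneous held far less, with 70.1 CPM in cavity macrophage-type, 38.7 in T/NK-type, 35.2 in monocyte/dendritic-type, 32.2 in structural and 17.5 in foamy macrophage-type nuclei. Of the 23 nuclei with Retnla, 16 were among the 38 with MHC class II transcripts, where the level was 2754 CPM against 62.2 CPM in the others. This pattern was chosen after its values were seen.

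Lyz2 (lysozyme) was at 258, 217, 148 and 1129 CPM, several times higher in MTZ-simultaneous than elsewhere, with a ratio to high-fat of 5.20 (3.65 to 7.61). Its 280 counts there lay in 62 nuclei with 77 in the highest, and the ratio was 4.12 without the highest nucleus of each library. Without the limit on genes of other cells, which also removes nuclei with foamy-macrophage genes, the Lyz2 ratio was 1.23, and with at least 4 markers it was 8.41. It was at 2237 CPM in nuclei with MHC class II transcripts and at 529 CPM in the others. T/NK-type nuclei of that library held 181 CPM and cavity macrophage-type nuclei, of which there were 163 against 17 in high-fat, 1015 CPM. Alox5ap, which feeds leukotriene synthesis, was at 35.9, 24.8, 5.12 and 141 CPM (ratio 5.69, 2.03 to 22.0), and T/NK-type nuclei of MTZ-simultaneous held 0 counts. The motor gene Myo5b had 13, 0, 2 and 35 counts.

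**Figure D5:**
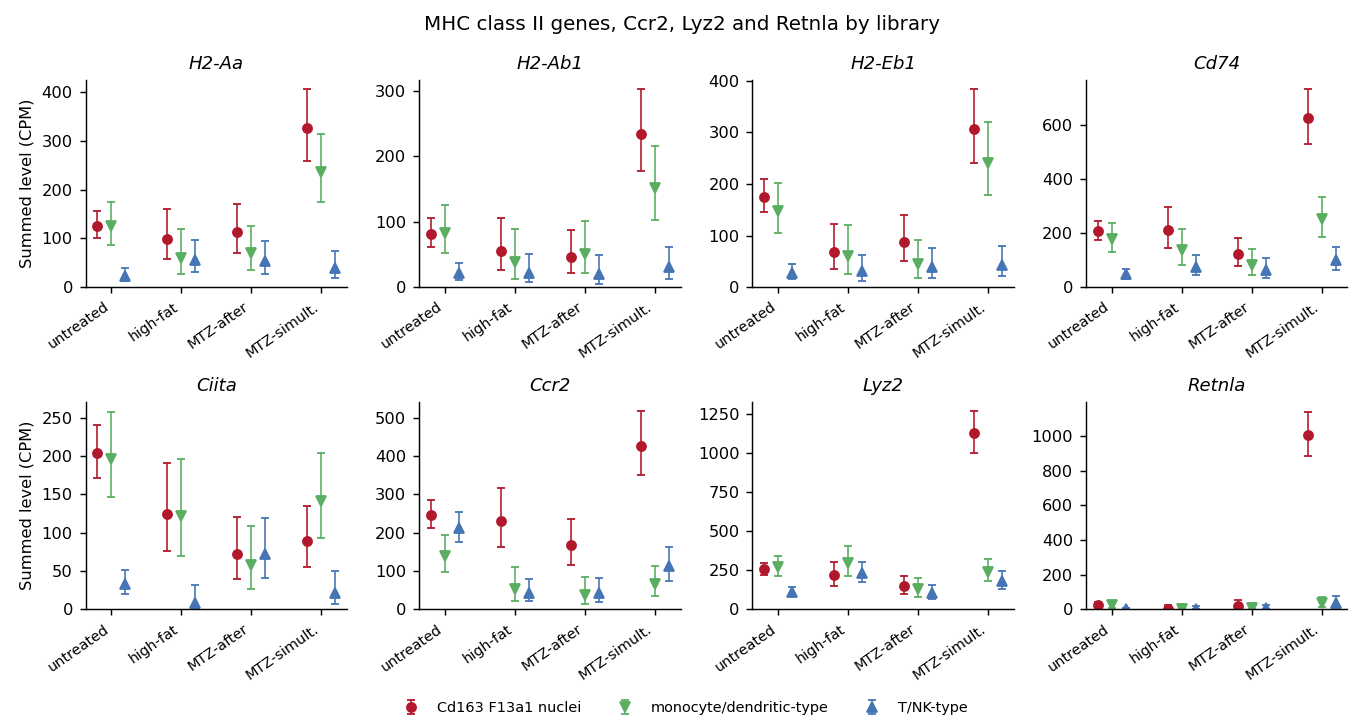
Level (CPM) of 5 MHC class II genes, Ccr2, Lyz2 and Retnla by library in the Cd163 F13a1 nuclei, monocyte/dendritic-type nuclei and T/NK-type nuclei, with 95% counting intervals. Cd74 is at 625 CPM and Retnla at 1008 CPM in the Cd163 F13a1 nuclei of MTZ-simultaneous, above the other libraries, while Ciita is highest in untreated at 204 CPM.

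Among the first 5 higher genes, 3 came from 1 nucleus. Fut9, Slc5a12 and Slc34a1, the last 2 being solute carriers of the kidney tubule, had 60 of 61, 46 of 47 and 32 of 33 counts in the same nucleus of 8850 UMIs, and 0 counts in the included nuclei of all other libraries. Without that nucleus 1 count of each was left, below the floor. Lower genes, besides Chl1 and Irs1, were Ubash3b (157 against 403 CPM, ratio 0.390, 0.255 to 0.589), the thromboxane synthase Tbxas1 (405, 416, 261 and 198 CPM, ratio 0.475) and Spred1, an inhibitor of Ras signalling (323 against 145 CPM). The RNA helicase Ddx60 was at 290, 416, 420 and 202 CPM (ratio 0.485), and Gm4951, Epb41l1 and the scavenger receptor Msr1 (199 against 96.8 CPM) complete the 9.

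Of the other lists, lipid-associated genes had a median of -0.71, with 5 called lower and 1, Fabp4, higher of 15. Their medians were -0.55 in T/NK-type, -1.05 in structural and 0.22 in foamy macrophage-type nuclei. Spp1 and Gpnmb had ratios of 0.387 (0.314 to 0.476) and 0.332 (0.230 to 0.473). Immediate early genes were above 0 in 13 of 16 with a median of 0.48 and 1 call, Fos (ratio 2.64, 1.48 to 5.01), against -0.40 in T/NK-type nuclei, where Fos was at 134 and 103 CPM. Among regulators the shear- and cytokine-responsive factor Klf4 was called higher (68.3 against 141 CPM, 2.07, 1.03 to 4.51) of 14. Complement C3 was the call of 4 in its list (31.0 against 242 CPM on 5 and 60 counts), with 17.3 and 146 CPM in T/NK-type nuclei, and the growth factor Pdgfc lower (397 against 125 CPM, 0.315, 0.198 to 0.491), with 173 and 43.0 CPM there. Mesothelial genes summed to 548 CPM in the included nuclei of MTZ-simultaneous and to 49.65 CPM in those of high-fat. T/NK-type nuclei of MTZ-simultaneous held 675 CPM and structural ones 530 CPM.

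Car1, the gene of the enzyme that MTZ is said to inhibit, was at 115, 80.7, 40.9 and 173 CPM in these nuclei. It was called higher in MTZ-simultaneous than in high-fat (ratio 2.15, 1.13 to 4.36) and not in the other comparisons. T/NK-type nuclei held 128, 90.9, 67.7 and 138 CPM, close to the level here in each library. Of the other carbonic anhydrases Car3 was the most abundant, at 478, 540, 312 and 399 CPM, with 510, 355, 329 and 262 CPM in T/NK-type nuclei, and Car8 was called lower in high-fat (74.7 against 24.8 CPM on 52 and 4 counts).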

How the data were processed

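Single-nucleus 3' libraries were analysed, 1 for each of 4 groups. The deposited files hold UMI counts per gene and barcode; they were made with Cell Ranger and STAR on mm10, per the submitters' processing notes, and with Cell Ranger 7.0.1, per the file headers. Whether intronic reads were counted is not given in the sources used here. The members and lists were chosen with earlier results of these data known.

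Nuclei were chosen by the stated rule from barcodes with at least 300 genes and at most 10% mitochondrial UMIs, with no doublets removed. Scrublet in scanpy 1.11.5 marked at most 0.00448% of a library at its automatic threshold, so removal of the highest 8% of scores was an alternative. Counts were summed over nuclei per library and scaled to CPM. Ratios have exact conditional intervals, levels exact Poisson intervals and shares exact Clopper-Pearson intervals. A list's median log2 ratio of CPM + 1 covers genes with at least 10 counts over both libraries; medians for other types use the same genes. Named genes were up to 10 called genes in each direction, ranked by the interval bound nearest to 1, that were also at least 2-fold above T/NK-type and structural nuclei in the library with the higher level, without mitochondrial, ribosomal, haemoglobin and sex-linked marker genes. The 4 summed depths of 161112 to 696622 UMIs set the precision. The code was tested on simulated data. TMM factors came from edgeR 4.0.16, without its tests. Alternatives are in the closing section. Some genes of the lists are not reported here by name.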

Additional observations from a re-analysis of the deposited data

How the results depend on the processing

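No paired analysis was possible because each group has 1 library and the labels number no replicates. The settings without the limit on genes of other cells ("marker part only"), with both F13a1 and Cd163 detected, with thinning of the marker part, with a minimum of 200 CPM, with genes at 0 set to the floor and without the nucleus richest in a gene were chosen after seeing the data. The cause of each shift was not tested. The share of high-fat against untreated was 0.119 with at least 4 markers, 0.196 with 0 genes of other cells allowed, 0.322 for the marker part only, 0.164 with both leads, 0.344 for the thinned marker part and 0.105 over macrophage-type nuclei. For MTZ-after against high-fat it was 2.36 with 0 genes of other cells, 0.998 for the marker part only (a reversal), 2.30 with both leads and 2.88 over macrophage-type nuclei. For MTZ-simultaneous against high-fat it was 3.79 with 4 markers, 1.58 for the marker part only and 3.76 over macrophage-type nuclei. Removal of the highest 8% of doublet scores, which took 12, 2, 3 and 4 of the included nuclei, gave ratios of 0.262, 1.78 and 2.16.

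Counts of called genes moved with the number of nuclei and counts allowed. For high-fat against untreated, higher calls were 11 with 4 markers, 13 with 0 genes of other cells, 360 for the marker part only, 10 with both leads, 32 with TMM factors, 285 and 10 with minimums of 10 and 100 counts, and 21 after thinning to 500 UMIs. Lower calls were 235 with 0 genes of other cells, 854 for the marker part only, 981 and 79 with minimums of 10 and 100 counts, 54 with a minimum of 200 CPM and 89 after thinning. For MTZ-after against high-fat, higher calls in the order of 4 markers, 0 genes of other cells, marker part only, both leads, 10 counts, 100 counts and thinning were 21, 27, 317, 59, 551, 8 and 24, and lower calls were 22, 2, 313, 8, 401, 2 and 10. For MTZ-simultaneous against high-fat, higher calls were 12 with 0 genes of other cells, 330 for the marker part only, 29 with both leads, 737 and 11 with minimums of 10 and 100 counts, 50 with 200 CPM and 13 after thinning. Lower calls were 27 with 4 markers, 13 with 0 genes of other cells, 178 for the marker part only, 10 with both leads, 291 and 5 with minimums of 10 and 100 counts and 19 after thinning.

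List medians changed sign in high-fat against untreated for MHC class II genes (0.75 with 4 markers, 0.47 with both leads), interferon response (-0.028 with 4 markers), proliferation genes (-0.16 with 4 markers, -0.062 with 0 genes of other cells, -0.30 after thinning) and T and NK genes (-3.25 with 4 markers). They also did so for cavity macrophage genes in MTZ-after against high-fat (-0.24 with 0 genes of other cells), and in MTZ-simultaneous against high-fat for complement genes (-0.020 with 4 markers) and brown adipocyte genes (-0.15 after thinning). The ratio of Irs1 became 0.810 with 4 markers, 0.777 for the marker part only and 0.289 with both leads in high-fat against untreated, 1.12 and 2.13 for the latter pair of settings in MTZ-after, and 1.13 and 3.78 in MTZ-simultaneous. All of these but those for the marker part only rest on 3 or fewer counts in 1 of the libraries. With both leads (Arhgef37, Kcnip4, Il1b and Adgre4), with 4 markers (Kcnip4) and with 0 genes of other cells (Gm40304 and Il1b), 0 high-fat counts were left, too few for a direction. Against high-fat, Il6ra in MTZ-after was at 1.04 with 0 genes of other cells and 1.03 for the marker part only, and in MTZ-simultaneous Epb41l1 was at 1.10 for the marker part only and Msr1 at 1.44 with 0 genes of other cells. Fut9, Slc5a12 and Slc34a1 kept 1 count each without their richest nucleus, too few for a ratio.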
